A study of Mus musculus with 6 samples.

Results

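The matrix genes described here are 10 genes chosen by name from the spleen count table: 3 chains of fibrillar collagens (Col1a1, Col1a2 and Col3a1), both major chains of basement membrane collagen (Col4a1 and Col4a2), the fibril-associated collagen Col14a1, the proteoglycans Dcn and Bgn, and the matrix glycoproteins Sparc and Fn1. They are 10 of 40808 gene IDs in the table, and all 10 were among the 14110 genes with enough counts to test. RNA came from spleens of mice that had received transplanted bone marrow, and the extraction protocol in the labels calls the material leukaemia cells of the spleen. There were 3 libraries without Dox (replicates 4, 5 and 6) and 3 with Dox (replicates 10, 11 and 12). The labels do not spell out Dox, and they give no dose, duration, genotype, strain, age or sex, nor whether the libraries are 6 separate mice. If they are not, the p-values measure only the spread between these libraries, which may be technical.

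Collagens are secreted as triple helices. Type I collagen joins the chains of Col1a1 and Col1a2 and forms tension-bearing fibres, type III is built from Col3a1 chains alone, and type IV, from Col4a1 and Col4a2, forms the sheet that underlies vessels. Decorin and biglycan bind collagen fibrils, and fibronectin and SPARC link matrix and cells. In spleen these proteins belong to the capsule, the trabeculae, the vessel walls and the reticular fibres laid down by fibroblastic reticular cells, and lymphocytes are not their usual source.

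The genes did not move as 1 block. With Dox, 5 rose (Dcn, Col14a1, Col4a2, Sparc and Col4a1), 1 fell (Col1a1), and 4 did not pass the threshold (Fn1, Col3a1, Bgn and Col1a2; edgeR quasi-likelihood test, Benjamini-Hochberg adjusted p under 0.05 over all tested genes). Among all tested genes 45.6% passed that threshold, 23.6% higher and 22.1% lower with Dox, against 60.0% of these 10. With so few genes that share is close to the background, so the number called is not in itself a result about the matrix. Groups were fully apart in 6 matrix genes, those that passed, and in 59.6% of all tested genes. The median log2 fold change was 0.72 over the 10 genes and 0.07 over all tested genes.

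Both chains of type IV collagen rose, and their genes lie head to head, so the stretch where their starts meet is shown here. The RefSeq promoter table (GRCm38.p6) places the start of Col4a2 on the plus strand at 11312805 and that of Col4a1 on the minus strand at 11312826, so these starts face each other across 22 bases. The annotated extent of Col4a1 runs on to 11312889, and the annotated genes share 85 bases. The stretch between the starts, chr8:11312805-11312826, is shown on each gene's own strand, with a GC box (GGGCGG, or CCGCCC on the other strand) in capitals.
Col4a2: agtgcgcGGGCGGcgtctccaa
Col4a1: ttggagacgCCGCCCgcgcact
Promoter entries of 300 bases (250 before and 50 after the start) were found for 6 of the 10 genes, namely Col3a1, Col1a2, Col4a1, Col4a2, Sparc and Bgn. On either strand GGGCGG was in 4 of the 6 windows (Col1a2, Col4a1, Col4a2 and Bgn) and in 35.7% of all 32851 windows, CCAAT was in 3 (Col1a2, Col4a1 and Col4a2) against 37.4%, and TATAAA was in 1 (Col3a1) against 13.6%. The windows of Col4a1 and Col4a2 overlap, so a motif in their shared bases counts for both. A match describes the letters of the window and is not a binding site.

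Levels are given as normalized CPM, that is counts divided by a library size that TMM corrects for composition and brought to 1 common total (CPM). The libraries read the 3′ ends of mRNAs, where a transcript is expected to give 1 fragment whatever its length, so levels were not divided by length. Total counts per library ran from 5541486 to 8725767, and the 10 genes had 66 to 3210 counts each in every library, far above the floor of 3 counts (0.309 to 0.608 normalized CPM). In both groups the libraries differed from each other by more than counting noise. The spread was wider with Dox: the common biological coefficient of variation over all tested genes was 0.19 without Dox and 0.515 with Dox. The coefficient of variation of the 10 genes had a median of 9.88% (4.16% to 27.7%) without Dox and 22.7% (3.02% to 51.8%) with Dox.

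**Figure D1:**
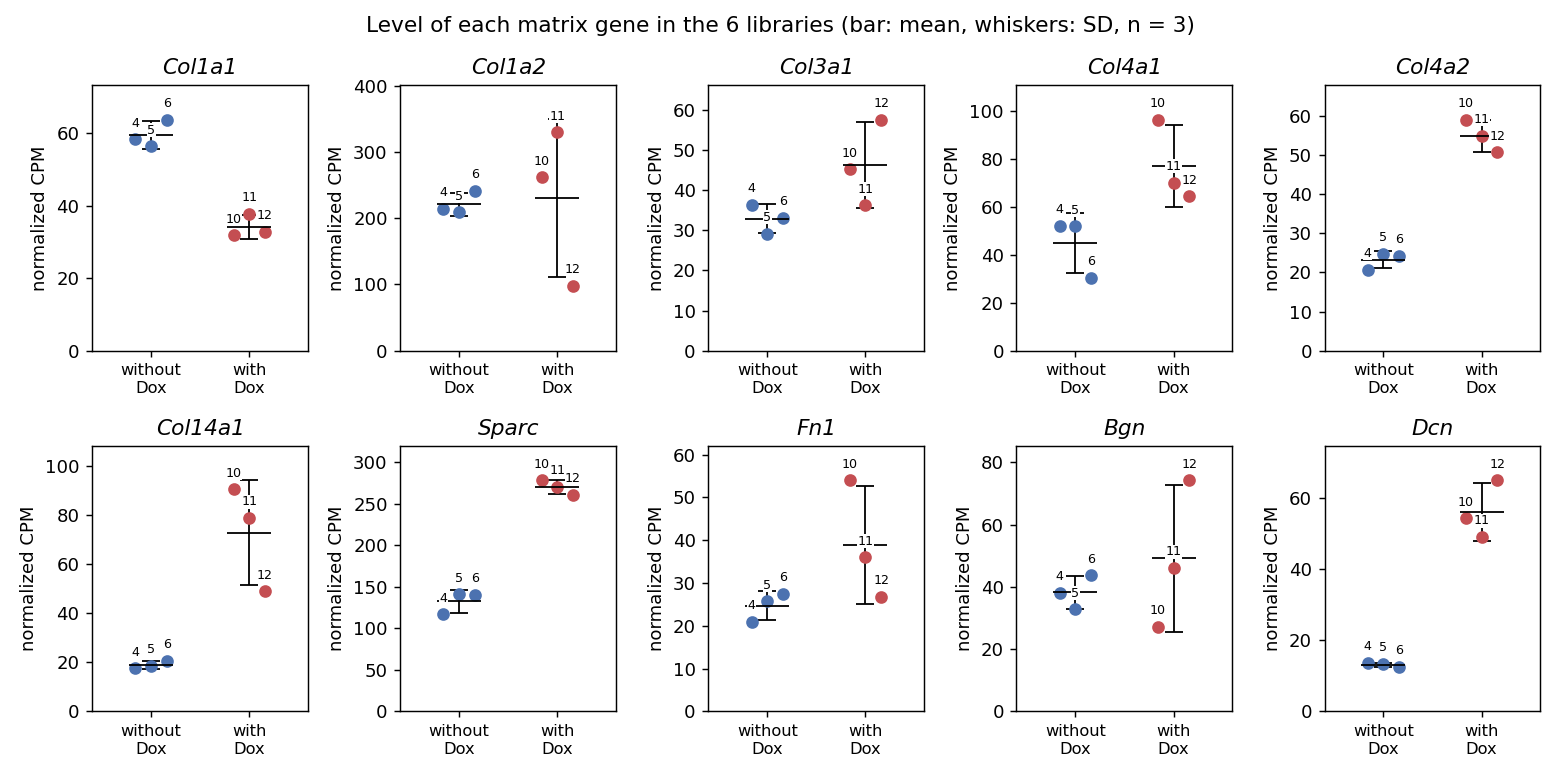
Normalized CPM (vertical axes, each starting at 0) of the 10 matrix genes in the 3 libraries without Dox (blue) and the 3 with Dox (red), numbered by replicate, with the mean and SD. The Sparc libraries with Dox sit between 261 and 278, above the 117 to 141 without Dox, while the Col1a2 libraries with Dox run from 98.4 to 330 around those without.

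Dcn encodes decorin, a small proteoglycan that coats collagen fibrils (Entrez gene 13179, chr10:97479500-97518163). Its level was 13.6, 13.4 and 12.5 normalized CPM in replicates 4, 5 and 6 without Dox and 54.3, 49.1 and 65.0 in replicates 10, 11 and 12 with Dox. Each library with Dox was well above each library without it. The rise was 4.26-fold, a log2 fold change of 2.09 ± 0.23 (SE, n = 3 per group; edgeR adjusted p = 6.48e-05). It was the largest change of the 10 genes and stood at percentile 87.9 of the log2 fold changes of all tested genes.

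Bgn encodes biglycan, a close relative of decorin, and lies on the X chromosome (Entrez gene 12111, chrX:73483601-73495936). It was at 38.1, 32.8 and 43.7 normalized CPM without Dox, and with Dox at 27.2, 46.1 and 74.2. The library lowest in Bgn and the one highest in it were thus both with Dox, and the groups overlapped. The log2 fold change was 0.36 ± 0.33 (SE, 95% interval -0.38 to 1.10, n = 3 per group; edgeR adjusted p = 0.401). Without Dox replicate 12 it was -0.07 (edgeR adjusted p = 0.841). A rise as large as that of Dcn is outside the interval, and a 2.04-fold rise like that of Sparc is inside it.

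Col14a1 encodes a collagen that sits on the surface of fibrils and does not form fibrils itself (Entrez gene 12818, chr15:55307644-55520803). Levels were 17.5, 18.6 and 20.7 normalized CPM without Dox and 90.4, 78.8 and 48.9 with Dox. All libraries with Dox were higher, and replicate 12 was the lowest of them. The rise was 3.84-fold, a log2 fold change of 1.94 ± 0.26 (SE, n = 3 per group; edgeR adjusted p = 0.00025).

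Of the fibrillar chains only Col1a1 passed the threshold. Col1a1 (Entrez gene 12842, chr11:94936224-94953042) was at 58.3, 56.3 and 63.7 normalized CPM without Dox and at 31.8, 37.8 and 32.8 with Dox. The groups did not overlap, and the level was 1.74-fold lower with Dox, a log2 fold change of -0.80 ± 0.19 (SE, n = 3 per group; edgeR adjusted p = 0.00698). Col1a1 was lower under every scaling tried, but with library size only, which moved the median of all tested genes from 0.07 to 0.38 and made 64.3% of called genes higher in place of 51.6%, it was at -0.49 and missed the threshold (edgeR adjusted p = 0.065). Relative to that median the fall was of similar size under both scalings.

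Col1a2, the partner chain of type I collagen (Entrez gene 12843, chr6:4505618-4541543), was at 214, 209 and 241 normalized CPM without Dox. With Dox it was at 262 and 330 in replicates 10 and 11, above all libraries without Dox, and at 98.4 in replicate 12, below them all. The log2 fold change was 0.06 ± 0.35 (SE, 95% interval -0.72 to 0.84, n = 3 per group; edgeR adjusted p = 0.901). Single libraries with Dox decided this value: without replicate 12 Col1a2 passed the threshold at 0.41 (edgeR adjusted p = 0.0371), and without replicate 11 it was at -0.32 (edgeR adjusted p = 0.502). No statement on the direction of Col1a2 holds across the libraries.

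Col3a1, whose chains form type III collagen of reticular fibres (Entrez gene 12825, chr1:45311538-45349706), was at 36.4, 29.2 and 33.2 normalized CPM without Dox. With Dox it was at 45.2, 36.2 and 57.6. Replicate 11 lay just under the highest library without Dox, so that the groups overlapped narrowly. The log2 fold change was 0.49 ± 0.24 (SE, 95% interval -0.04 to 1.02, n = 3 per group; edgeR adjusted p = 0.118), and with library size only it was 0.80 (edgeR adjusted p = 0.0172). Without Dox replicate 12 it was 0.28 (edgeR adjusted p = 0.3).

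Ratios of counts within 1 library do not depend on library scaling. Of the 2 fibrillar ratios taken, that of Col3a1 to Col1a1 was apart between the groups and that of Col1a2 to Col1a1 overlapped. There were 0.624, 0.518 and 0.521 Col3a1 counts for each Col1a1 count without Dox, and 1.42, 0.959 and 1.76 with Dox. Every library with Dox had the higher ratio, by 1.28 on the log2 scale (p = 0.1 in a two-sided exact permutation test, the minimum that 3 against 3 allows; 0.175 after Benjamini-Hochberg adjustment over 7 such quantities). For Col1a2 over Col1a1 the libraries without Dox gave 3.66, 3.70 and 3.77, a spread of SD 0.0577 around 3.71. With Dox it was 8.23, 8.75 and 3.0. These 2 chains belong to 1 protein, and their count ratio was nearly constant in the libraries without Dox and split in those with Dox, with replicate 12 below and replicates 10 and 11 above (exact two-sided permutation p = 0.4).

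The chains of type IV collagen both rose. Col4a1 (Entrez gene 12826, chr8:11198423-11312889) was at 52.2, 51.9 and 30.5 normalized CPM without Dox and at 96.5, 70.2 and 64.4 with Dox. The groups did not overlap, but replicate 6 was far below the other two libraries without Dox. The rise was 1.72-fold, a log2 fold change of 0.78 ± 0.26 (SE, n = 3 per group; edgeR adjusted p = 0.032). This call was fragile: it was lost when any library but Dox replicate 12 was left out, with adjusted p of 0.0762, 0.0944 and 0.196 without replicates 4, 5 and 6 and 0.129 and 0.0509 without replicates 10 and 11 (edgeR), at log2 fold changes of 0.48 to 0.86.

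Col4a2 (Entrez gene 12827, chr8:11312805-11449287) was at 20.7, 24.7 and 24.2 normalized CPM without Dox and at 58.9, 54.9 and 50.6 with Dox. Its libraries lay close together within each group and far apart between groups. The rise was 2.36-fold, a log2 fold change of 1.24 ± 0.21 (SE, n = 3 per group; edgeR adjusted p = 0.000898), and it passed the threshold in all 15 alternatives run. For each Col4a2 count there were 2.52, 2.10 and 1.26 Col4a1 counts in the libraries without Dox, and 1.64, 1.28 and 1.27 in the others. Those groups overlapped, so the 2 chains were not shown to change by different amounts (exact two-sided permutation p = 0.4).

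Basement membrane chains were also set against fibrillar chains within each library. Col4a1 and Col4a2 together had 0.237, 0.261 and 0.162 counts for each count of Col1a1, Col1a2 and Col3a1 together without Dox, and 0.458, 0.309 and 0.609 with Dox. Each library with Dox had the higher ratio, by 1.04 on the log2 scale (p = 0.1 in the two-sided exact permutation test, its minimum; 0.175 adjusted over the 7 quantities). Col1a2 makes up most of the fibrillar counts, so this ratio moved with its spread and was highest in replicate 12.

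**Figure D2:**
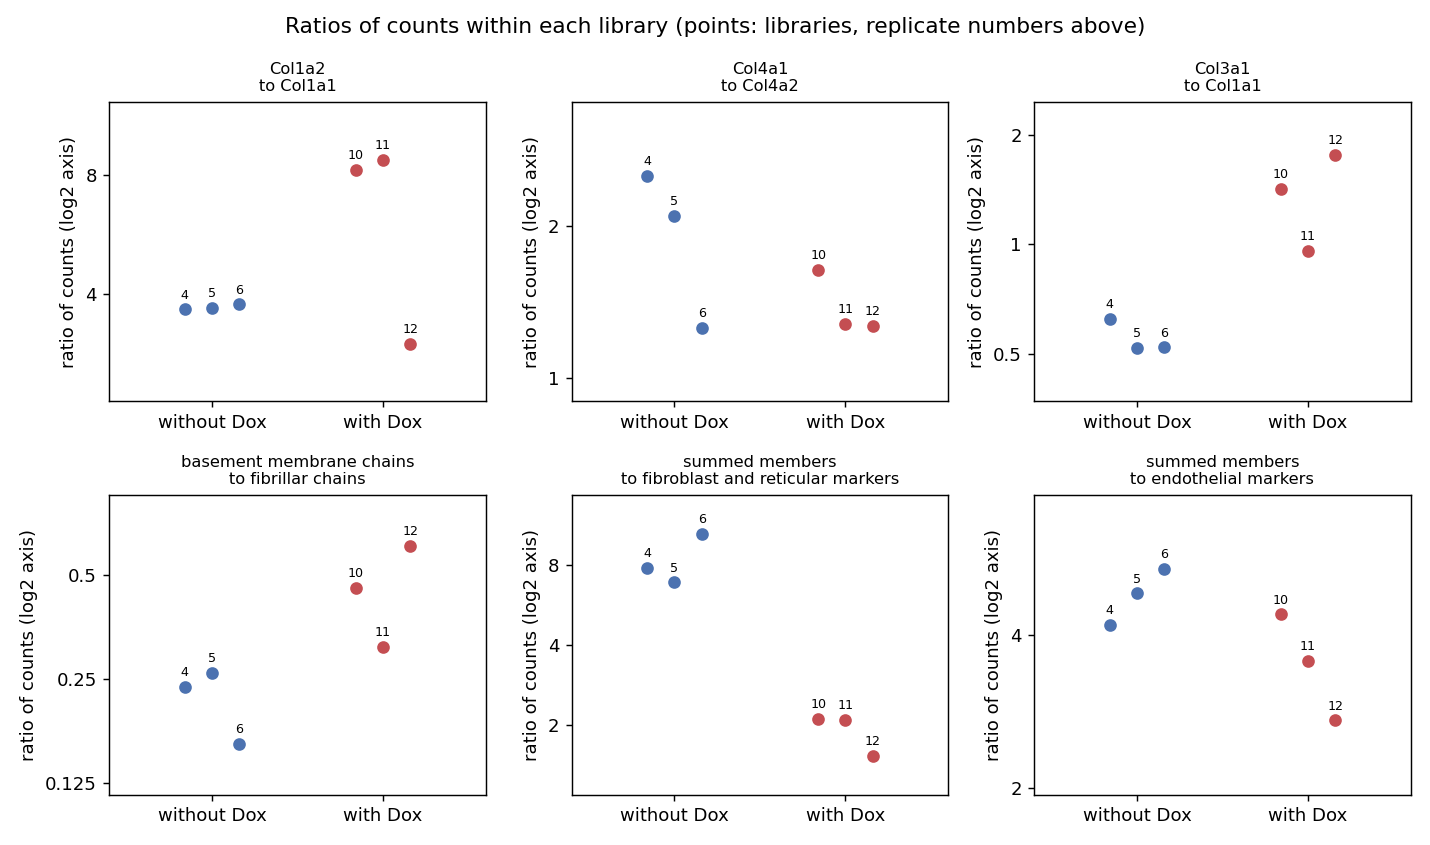
Ratios of counts within each library (log2 vertical axes, so distances are fold differences) for the 3 libraries without Dox (blue) and the 3 with Dox (red), numbered by replicate. Members are the 10 matrix genes; the ratio of Col3a1 to Col1a1 is 0.518 to 0.624 without Dox and 0.959 to 1.76 with Dox, and Dox replicate 12 stands apart from replicates 10 and 11 in the ratio of Col1a2 to Col1a1.

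Sparc encodes osteonectin, a secreted collagen-binding protein (Entrez gene 20692, chr11:55394159-55420080). It was at 117, 141 and 140 normalized CPM without Dox and at 278, 270 and 261 with Dox. The libraries with Dox agreed to a coefficient of variation of 3.02%, the tightest of the 10 genes in either group. The rise was 2.04-fold, a log2 fold change of 1.03 ± 0.15 (SE, n = 3 per group; edgeR adjusted p = 0.000475).

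Fn1 encodes fibronectin, which cells bind through integrins (Entrez gene 14268, chr1:71585473-71653280). It was at 21.0, 25.7 and 27.5 normalized CPM without Dox and at 54.0, 36 and 26.8 with Dox. Replicate 12 fell within the range of the libraries without Dox. The log2 fold change was 0.65 ± 0.29 (SE, 95% interval 0.0023 to 1.31, n = 3 per group), with an unadjusted p of 0.0493 and an adjusted p of 0.0938 (edgeR). Without replicate 12 it was 0.85 (edgeR adjusted p = 0.0185), and without replicate 10 it was 0.32 (edgeR adjusted p = 0.373).

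**Figure D3:**
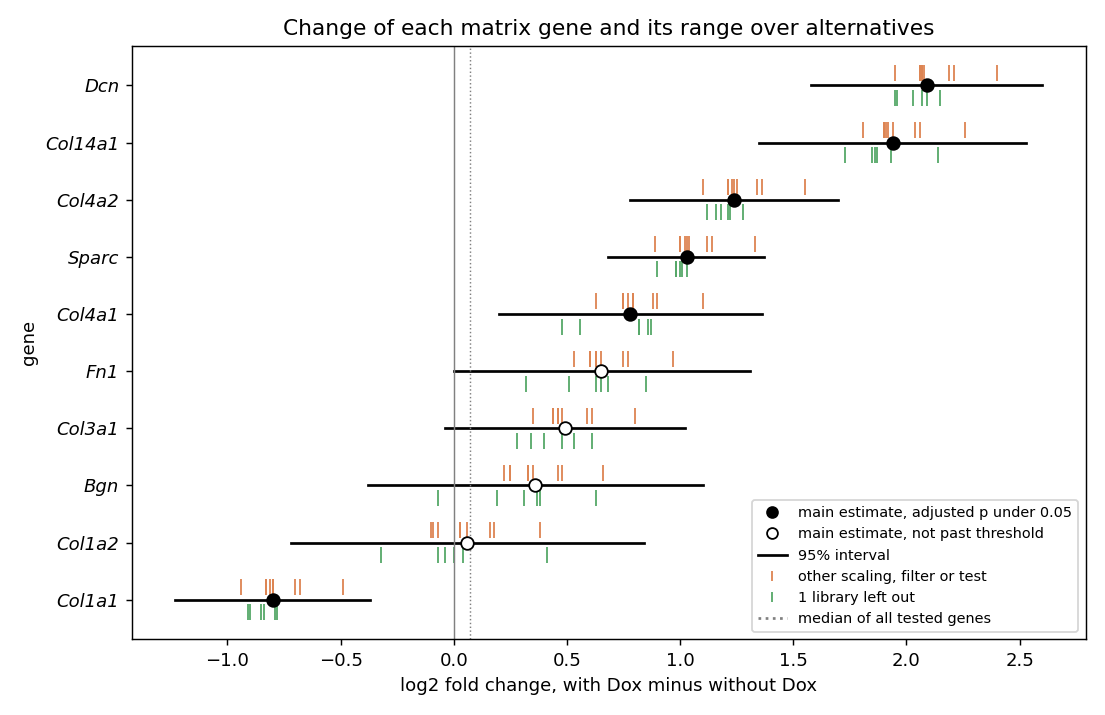
Log2 fold change, with Dox minus without Dox (horizontal axis), of the 10 matrix genes in order of size, with 95% intervals (black lines); filled points passed an adjusted p of 0.05. Ticks above each line are other scalings, filters or tests, ticks below are fits that left out 1 library, and the dotted line is the median of all tested genes (0.07). Dcn, Col14a1, Col4a2 and Sparc stay right of 0 throughout, Col1a1 stays left of it, and Col1a2 and Bgn have ticks on both sides.

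Dox replicate 12 was the lowest library with Dox for Col1a2, Col4a1, Col4a2, Col14a1, Sparc and Fn1 and the highest for Col3a1, Bgn and Dcn. Col1a1 alone among the 10 genes had replicate 12 in the middle. In summed level the 10 genes had 588, 602 and 637 normalized CPM without Dox and 998, 1010 and 780 with Dox. They took 0.0510%, 0.0536% and 0.0590% of all counts without Dox and 0.113%, 0.112% and 0.0837% with Dox (p = 0.1 in the two-sided exact permutation test, its minimum; 0.175 adjusted over the 7 quantities).

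Profiles over the 6 libraries were also compared gene by gene, by the root-mean-square difference of log2 normalized CPM after centring each gene, among 13258 tested genes with a mean of at least 2 normalized CPM. The closest pair among the 10 genes was Col4a2 and Sparc, at 0.105. Sparc was the gene ranked 15 in likeness to Col4a2, and Col4a2 was ranked 18 in likeness to Sparc. For the other 8 genes the nearest matrix gene ranked between 470 (Col4a2 for Col14a1) and 4781 (Col1a2 for Col1a1). The nearest of all other genes were Tagln2 and Gtf3c6 for Col1a1, Hnrnpk and Lmna for Col1a2, Lrch1 and Cd93 for Col4a1, Gm52817 and Ccnd2 for Col4a2, and Mgll and Parp9 for Dcn. They were Fbrs and Ints2 for Col3a1, Gga2 and Slc43a1 for Col14a1, Efcab14 and Ptpre for Sparc, Slc35b2 and Ccdc93 for Fn1, and Ptcd1 and Faap20 for Bgn. With 6 libraries in 2 groups many genes share a profile by shape alone, so these distances only describe it.

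Markers of cells that usually make matrix were read beside these values, and not all went one way. In bulk RNA, more cells of a type and more RNA per cell cannot be told apart. Of 14 fibroblast and reticular cell markers 13 were tested, 9 were higher and 1 lower with Dox. For this and the next marker lists, the shares over all tested genes were 23.6% higher and 22.1% lower. Their summed level was 61.2 to 87.8 normalized CPM without Dox and 474 to 506 with Dox. The chemokine genes Ccl19 (0.678 to 2.54 normalized CPM without Dox, 110 to 141 with Dox), Cxcl13 (2.23 to 2.88 and 110 to 118) and Cxcl12 (means 13.5 and 114) made up most of the level with Dox. The other 11 markers summed to 49.5 to 67.9 without Dox and 115 to 140 with Dox. The platelet-derived growth factor receptor genes went apart, with Pdgfra higher (log2 fold change 1.99 ± 0.35 (SE), edgeR adjusted p = 0.00131) and Pdgfrb lower (-0.83 ± 0.26 (SE), edgeR adjusted p = 0.0277). These 5 markers were named after their values were seen.

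Other candidate sources were read in the same way. Endothelial markers summed to 118 to 140 normalized CPM without Dox and 227 to 287 with Dox (12 genes, 10 tested, 4 higher), and Emcn was at 0 in all libraries with Dox and had 1 count in total without. The 4 higher were Kdr, Stab2, Plvap and Vwf. Those not past the threshold were Pecam1, Cdh5, Egfl7 and Esam (log2 fold changes 0.19, -0.05, -0.25 and -0.58) and Tek and Tie1 (1.92 and 1.01). The rise of the sum was thus not shared by all endothelial markers. Smooth muscle and pericyte markers summed to 44.6 to 52.4 and 136 to 175 (8 genes, 7 tested, 4 higher), with Tagln at 0 in all libraries. Macrophage markers summed to 776 to 908 and 819 to 1080, overlapping between groups (11 genes, 1 higher, 4 lower). Megakaryocyte and platelet markers summed to 66.7 to 75.3 and 231 to 288 (6 genes, 5 higher). Mesothelial markers of the capsule summed to 1.01 to 4.07 and 3.29 to 12. Pancreatic acinar markers summed to 17.6 to 28.4 without Dox and 2.72 to 9.75 with Dox, with Cela1 the only one of 8 tested (lower, edgeR adjusted p = 0.0109) and Cpa1, Ctrb1 and Pnlip at 0 in all libraries. Cela1 made up most of that sum (17.6 to 26.1 without Dox and 2.72 to 9.75 with Dox). Adipocyte markers summed to 14.9 to 24.4 and 7.12 to 13.9, with Fabp4 the only one of 5 tested (lower, edgeR adjusted p = 0.0196). Fabp4 made up most of the sum without Dox (14.8 to 23.6) and was at 4.43 to 10.5 with Dox. Cfd went the other way, with 0 counts in all libraries without Dox and 9, 39 and 13 in replicates 10, 11 and 12. The part of these cells in the matrix gene changes was not tested.

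The ratio of matrix genes to reticular markers depended on which markers were summed. There were 7.77, 6.86 and 10.4 counts of the 10 matrix genes for each count of the 14 fibroblast and reticular markers without Dox, and 2.11, 2.10 and 1.54 with Dox. All libraries with Dox had the lower ratio, with a log2 difference of -2.12 (p = 0.1 in the two-sided exact permutation test, its minimum; 0.175 adjusted over the 7 quantities). Without Ccl19, Cxcl13 and Cxcl12, left out after seeing the data, the ratio was 10.7, 8.87 and 12.9 without Dox against 8.71, 7.71 and 5.59 with Dox, a log2 difference of -0.57 between groups that just failed to overlap (exact permutation p = 0.1). Against the endothelial markers the libraries without Dox gave 4.19, 4.84 and 5.40 and the others 4.40, 3.56 and 2.72, and the groups overlapped (exact two-sided permutation p = 0.2).

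**Figure D4:**
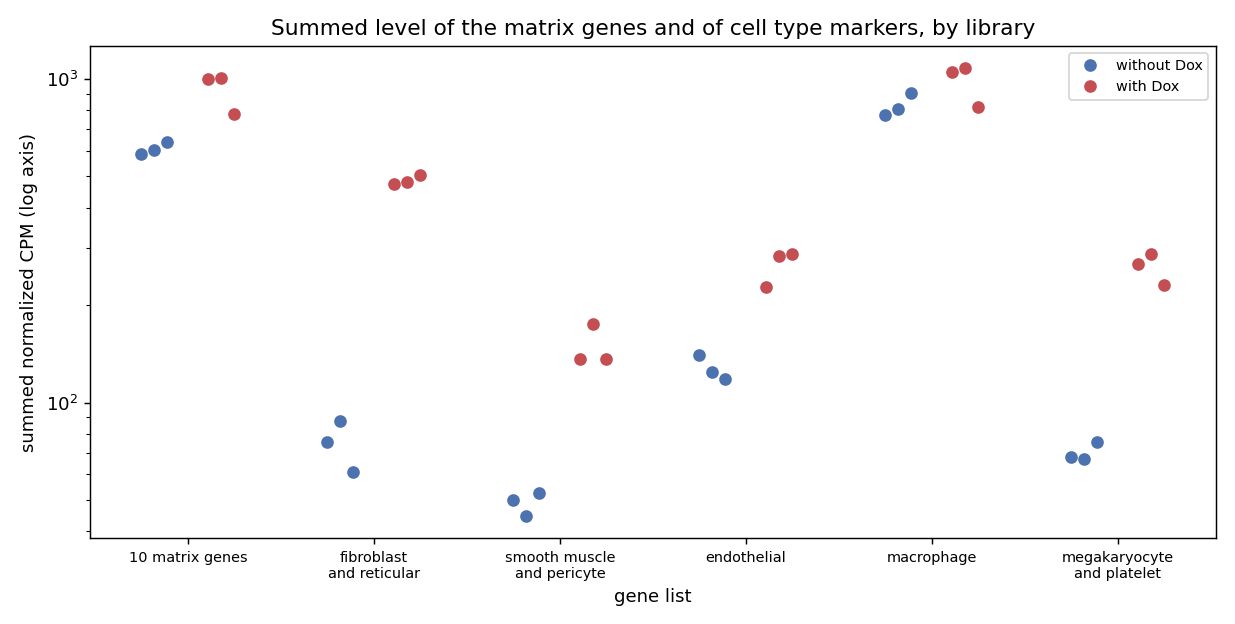
Summed normalized CPM (log vertical axis) of the 10 matrix genes and of 5 lists of cell type markers in each library, without Dox in blue and with Dox in red. Summed fibroblast and reticular markers lie at 61.2 to 87.8 without Dox and 474 to 506 with Dox, a wider gap than that of the matrix genes (588 to 637 and 780 to 1010) that rests mostly on 3 chemokine genes (49.5 to 67.9 and 115 to 140 without them), and the macrophage sums overlap.

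The leukaemia material named in the protocol was checked against lymphocyte markers. T lineage markers, among them Cd3e and Rag1, summed to 1370 to 1460 normalized CPM without Dox and 83.2 to 112 with Dox, and B cell markers to 14.2 to 18.6 and 1120 to 1170. The groups also differed in sex-linked RNA: 4 Y-linked genes had 545 to 801 counts without Dox and 0 with Dox, and Xist had 193 to 324 and 3347 to 5669 counts. Dox and the sex of the mice, or of the donors of the cells, cannot be told apart here, for Bgn on the X chromosome as for the other genes. Haemoglobin genes took 8.61% to 9.04% of counts without Dox and 14.1% to 15.9% with Dox.

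Other genes of the matrix were read from 7 lists by role, 160 genes of which 119 had enough counts to test. With Dox 45 were higher, 4 lower, and 70 did not pass, so that 41.2% passed against 45.6% of all tested genes. By direction, 37.8% were higher against 23.6% of all tested genes, and 3.36% were lower against 22.1%. The median log2 fold change of the 119 was 0.92, against 0.07 for all tested genes. The 4 lower genes were Col27a1, Sdc1, Itga9 and Smad3. The count of lower genes depended on the tool, the filter and single libraries: it was 9 with DESeq2, with limma-voom or with low counts kept, 7 without Dox replicate 10 and 10 without Dox replicate 12. Genes seen in 1 group only could enter the test through that group, so the counts describe the tested genes and not the lists as a whole. The lists were chosen with earlier results of these data known, so their shares, here and below, are not a test of the matrix.

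Basement membrane genes other than Col4a1 and Col4a2 showed 6 higher, 0 lower and 5 not past the threshold among 11 tested of 21 (median log2 fold change 1.24). Higher genes were 54.5% of those tested, against 23.6% of all tested genes, but the count of 6 fell to 2 without replicate 4 or 6 and to 3 without replicate 5, without Dox replicate 10 or with limma-voom. The count of lower genes was 0 in edgeR, also at an unadjusted p under 0.05, and in DESeq2 and limma-voom. Hspg2, which encodes perlecan, the heparan sulphate proteoglycan of basement membranes, was at 3.38 ± 0.859 normalized CPM without Dox and 38.2 ± 16 with it (SD, n = 3 each; edgeR adjusted p = 0.000119). The laminin chain gene Lama4 was at 0 to 0.509 and 2.90 to 10.8 normalized CPM (edgeR adjusted p = 0.00522). Col18a1, the source of endostatin, was at 6.15 ± 2.12 and 14.5 ± 5.51 (SD, n = 3 each), just inside the threshold (edgeR adjusted p = 0.0491).

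Among 13 tested of 18 other collagens 3 were higher, 1 lower and 9 not past the threshold (median log2 fold change 0.83). The share higher, 23.1%, was close to that of all tested genes (23.6%). The count of 3 fell to 1 without replicate 5 or 6 and was 5 with library size only, and 2 in place of 1 were lower without Dox replicate 11, with DESeq2 or with low counts kept. Col5a1, a minor chain of type I fibrils, rose from 10 ± 1.65 to 23.8 ± 7.19 normalized CPM (SD, n = 3 each; edgeR adjusted p = 0.012). Col16a1, a fibril-associated collagen, was at 0.448 to 1.53 and 7.92 to 14.3 (edgeR adjusted p = 0.00268). Col27a1, a fibrillar collagen best known from cartilage, fell from 37.8 ± 4.65 to 9.69 ± 3.39 (SD, n = 3 each; edgeR adjusted p = 0.000634), as Col1a1 did.

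Enzymes and chaperones of collagen synthesis were called higher about as often as all genes (20.0% against 23.6%). Of 27 such genes 20 were tested, with 4 higher, 0 lower and 16 not past the threshold, and a median log2 fold change of -0.09. The count of 4 fell to 2 without replicate 5. Lower genes were 0 in edgeR with the settings used throughout, 2 at an unadjusted p under 0.05, and 2 each in DESeq2 and limma-voom. They were 1 in edgeR with RLE size factors, with low counts kept or with mitochondrial, globin and antigen receptor genes left out, and they were 1, 1 and 2 in edgeR without Dox replicates 10, 11 and 12. Those higher included the crosslinking lysyl oxidases Loxl1 (1.99 ± 0.996 to 8.27 ± 1.58 normalized CPM) and Loxl2 (14.4 ± 1.12 to 50 ± 23.2; SD, n = 3 each; edgeR adjusted p = 0.0227 and 0.00164) and the prolyl isomerase Fkbp14 (edgeR adjusted p = 0.0166). The collagen chaperone Serpinh1 (HSP47), picked out after its values were seen, was at 11.3 to 13.9 normalized CPM without Dox and 4.43 to 15.1 with Dox, with overlapping groups (edgeR adjusted p = 0.349).

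Proteoglycans, elastic fibre and matricellular genes had 8 higher, 0 lower and 19 not past the threshold among 27 tested of 32 (median log2 fold change 0.66). The share higher was 29.6%, near the 23.6% of all tested genes. Lower genes were 0 in edgeR with the settings used throughout, 1 at an unadjusted p under 0.05, 1 in DESeq2, 2 in limma-voom and 2 in edgeR with low counts kept, and they were 2 and 1 in edgeR without Dox replicates 10 and 12. Under the stricter filter of 10 counts per library, which tests fewer genes, 4 were higher. Thrombospondin 1 (Thbs1) rose from 4.72 ± 0.989 to 42.2 ± 16.1 normalized CPM, and tenascin X (Tnxb), a protein that spaces collagen fibrils, from 1.74 ± 1.0 to 22.2 ± 6.61 (SD, n = 3 each; edgeR adjusted p = 8.67e-05 and 0.000361). Efemp1, which encodes a fibulin, was at 0 to 0.895 normalized CPM without Dox and 8.17 to 8.96 with Dox (edgeR adjusted p = 0.00403).

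Genes of matrix degradation and its inhibitors showed 6 higher, 0 lower and 7 not past the threshold among 13 tested of 22 (median log2 fold change 1.86, 46.2% higher against 23.6% of all tested genes). Under the stricter filter 2 were higher. The count of lower genes was 0 in edgeR, also at an unadjusted p under 0.05, and in DESeq2 and limma-voom, and 1 in edgeR without Dox replicate 12. The collagenase gene Mmp8 was at 0.149 to 1.01 normalized CPM without Dox and 27.0 to 30.8 with Dox, and the gelatinase gene Mmp9 at 0.170 to 1.64 and 12.1 to 18.8 (edgeR adjusted p = 2.77e-05 and 0.000817). Both are granule proteins of neutrophils. Mmp23 was at 0.746 to 2.84 and 12.9 to 24.9 (edgeR adjusted p = 0.000517). Among the 6 were the inhibitor genes Timp2 and Timp3, named after their values were seen (edgeR adjusted p = 0.00529 and 2.1e-05).

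Of 26 matrix receptor genes 22 were tested, and 13 were higher, 2 lower and 7 not past the threshold (median log2 fold change 1.30, 59.1% higher against 23.6% of all tested genes). In place of 2, 1 was lower without replicate 4, with library size only or with the stricter filter. The integrin chain genes Itgb3 (8.71 ± 0.867 to 101 ± 13.6 normalized CPM) and Itga1, a collagen receptor chain (3.70 ± 3.41 to 37.1 ± 12.3), rose (SD, n = 3 each; edgeR adjusted p = 2.88e-06 and 0.00211). Gp6, the collagen receptor of platelets, was at 0 to 0.811 and 11.3 to 28.0 (edgeR adjusted p = 0.000245), beside platelet markers that were also higher. The syndecan gene Sdc1 fell from 36.6 ± 7.47 to 2.40 ± 3.11 normalized CPM and the integrin chain gene Itga9 from 66.5 ± 4.14 to 41.8 ± 5.42 (SD, n = 3 each; edgeR adjusted p = 0.00231 and 0.0163).

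TGF-beta signalling, a main inducer of collagen genes in fibroblasts, was read from 14 genes, 13 of them tested, with 5 higher, 1 lower and 7 not past the threshold (median log2 fold change 0.92, 38.5% higher against 23.6% of all tested genes). The count of 5 fell to 3 without replicate 6 or without Dox replicate 12, and 3 in place of 1 were lower without Dox replicate 12. Lower genes were 2 with DESeq2, limma-voom with or without group weights, or low counts kept. The inhibitory Smad7 rose from 1.64 ± 1.25 to 18.7 ± 4.95 normalized CPM and the co-receptor gene Tgfbr3 from 4.87 ± 0.359 to 21.6 ± 2.96 (SD, n = 3 each; edgeR adjusted p = 0.000939 and 0.000498). The ligand gene Tgfb1 was at 2.93 ± 1.73 and 9.44 ± 3.12 (SD, n = 3 each; edgeR adjusted p = 0.0412). Smad3, which carries the signal to the nucleus, fell from 38.6 ± 9.11 to 14.9 ± 3.32 (SD, n = 3 each; edgeR adjusted p = 0.0033). Many of these genes are also expressed by blood cells, and the cell type behind each value was not measured.

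**Figure D5:**
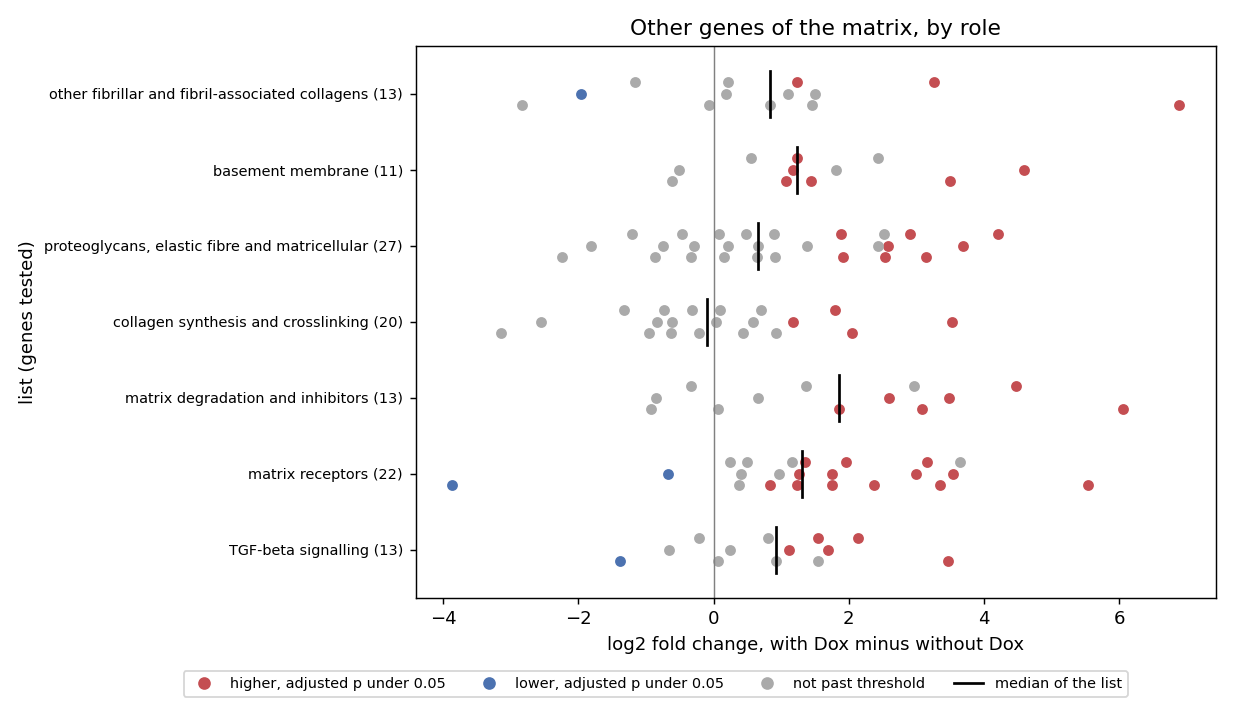
Log2 fold change, with Dox minus without Dox (horizontal axis), of the 119 tested genes of the 7 matrix lists, 1 point per gene, coloured by whether it passed an adjusted p of 0.05 and in which direction, with the median of each list as a black line. Basement membrane, matrix degradation and receptor genes lie mostly right of 0 (medians 1.24, 1.86 and 1.30), and genes of collagen synthesis lie around it (median -0.09).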

How the data were processed

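The authors deposited raw counts per Entrez gene ID for 6 libraries of mRNA 3′ ends (QuantSeq forward kit, Lexogen, per the labels' protocols). STAR, featureCounts and the build GRCm38 are named in the submitters' processing notes; versions, settings, strand use and annotation are not given in the sources used here. Symbols, gene positions and promoter windows came from RefSeq tables of GRCm38.p6, and 39374 of 40808 gene IDs had a symbol. The 10 genes were taken by name. They and the lists were chosen with earlier results of these data known. Counts were tested in edgeR 4.0.16 (R 4.3.3): filterByExpr (minimum count 10, minimum total 15), TMM factors, and the quasi-likelihood test of Dox against no Dox without covariates, adjusted by Benjamini-Hochberg over 14110 genes. Standard errors were derived from each F value, and 95% intervals from the t distribution. Ratios were tested over libraries by exact permutation (SciPy 1.17.1). Genes named from the lists were the 3 with the largest change in each direction of each list among those past the threshold, with groups apart and a mean of at least 2 normalized CPM. On simulated data with these libraries' means, the fit called 121 of 191 genes changed by 2 on the log2 scale and 8 of 13289 unchanged genes. The simulation gave both groups the same spread per gene and changed only a small share of genes. The real libraries differ in both respects, so those counts do not give the error rates of the test here. Alternatives were other scalings and filters, DESeq2 1.42.0, limma-voom (limma 3.58.1), a stricter threshold and each library left out. Pairs of libraries within a group had a chi-square of at least 7.05 times its degrees of freedom, so none was treated as a repeat deposit of another, which does not show that they are separate mice. Counting floors cover counting error only, since reads are not independent molecules.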

Additional observations from a re-analysis of the deposited data

How the results depend on the processing

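No paired analysis was possible because replicate numbers differ between the groups. Dcn, Col14a1, Col4a2 and Sparc kept their direction and their side of the threshold in all 15 alternatives run, 9 other scalings, filters or tests and 6 fits that left out 1 library. With library size only, 0 of the 10 genes were lower with Dox: Col1a1 was at -0.49 (adjusted p = 0.065), and Col3a1 at 0.80 and Fn1 at 0.97 passed. That scaling moved the median of all genes to 0.38, and higher genes made up 64.3% of those called in place of 51.6%. Fn1 also passed with at least 10 counts in every library, at 0.77 (adjusted p = 0.0433). The sign of Col1a2 turned with low counts kept (-0.07), with limma-voom (-0.10) and with limma-voom with group weights (-0.09), an alternative chosen after seeing the data. The ratio of matrix genes to reticular markers moved from -2.12 to -0.57 without 3 chemokine genes, also left out after seeing the data. Leaving out 1 library at a time gave -0.32 to 0.41 for Col1a2, 0.28 to 0.61 for Col3a1, 0.48 to 0.87 for Col4a1, 0.32 to 0.85 for Fn1 and -0.07 to 0.63 for Bgn. In those fits 4 to 7 of the 10 genes were higher and 1 lower, and 3 to 10 genes of the 7 lists were lower. The lower genes of the lists numbered 9 with DESeq2, with limma-voom and with low counts kept, and 7 with group weights, in place of 4. At an adjusted p under 0.01, 29 genes of the lists and 2200 of all tested genes were higher, in place of 45 and 3324, since a stricter threshold can only lower a count. Other causes of these shifts were not tested.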

Other observations

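Decorin is usually made together with lumican, another small leucine-rich proteoglycan of collagen fibrils. Here Dcn had 66 to 493 counts in every library, while Lum was at 0 counts in all libraries without Dox and at 2, 0 and 0 with Dox. For counting error alone, a count of 0 allows up to 0.309 to 0.608 normalized CPM in these libraries. That range holds only for genes whose reads were assigned to them. The matrix genes Vtn, Mfap2 and Loxl4 were at 0 in all 6 libraries. The smooth muscle gene Tagln was also at 0 in all 6, although Acta2 had 107 to 783 counts and Myh11 48 to 447. Whether reads of Lum, Vtn, Mfap2, Loxl4 and Tagln were assigned to these genes was not tested. Their counts of 0 are therefore not shown to be absence of the RNA. These genes were picked out after their values were seen.

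In Dox replicate 12, low Col1a2 (98.4 normalized CPM against 262 and 330 in replicates 10 and 11) came with low values of some other genes. The metalloproteinase inhibitor gene Timp2 was at 178 in replicate 12 against 801 and 477, the macrophage receptor gene Csf1r at 73.9 against 160 and 191, and the complement gene C1qa at 118 against 277 and 226. The macrophage marker Vcam1 was also lowest in replicate 12, at 280 against 345 and 379. Most macrophage markers did not share this order. Replicate 12 was the highest library with Dox for Adgre1, Spic, Cd5l, Cd68 (40.5 against 18.2 and 10.1) and C1qc (97.0 against 71.0 and 80.5). It was in the middle for C1qb, Mrc1 and Lyz2. These genes were picked out after their values were seen.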
